A study of Homo sapiens with 16 samples.

Results

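Replicate 2 of the MITF and TFE3 double knockout was set against replicates 1 and 3 of the same cells, to describe how far cultures with 1 genotype label differed in their transcripts. SKMEL28 is an established human melanoma cell line. The double knockout, abbreviated DKO, is labelled MITFKO, TFE3KO and was made with CRISPR-Cas9 by editing TFE3 in an SKMEL28 line, D2, that already carried the MITF edit. DKO clones 3 and 13 are each a single clone and gave 3 RNA-seq libraries apiece. The 6 libraries, of 16 in the series, divide into replicate 2 of each clone (2 libraries) and replicates 1 and 3 of each clone (4 libraries). The other SKMEL28 libraries were 3 from the D2 line, labelled MITFKO, and 1 from wild-type cells. A375, another human melanoma line, gave 3 libraries from TFE3KO cells and 3 from wild-type cells. Replicates were separate flasks that received fresh medium 24 hours before harvest, DMEM for A375 and RPMI for SKMEL28. Whether a replicate number marks a shared day of plating, harvest or library construction is not given in the sources used here.

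The 2 libraries were selected on these same gene counts, because replicate 2 stood apart in them. Its values inside the DKO are therefore given as a description, with no p-value. Tests are given only for replicate 2 of the MITFKO and A375 libraries, which played no part in the choice, and for the DKO against MITFKO comparison with and without replicate 2. In that comparison the p-values without replicate 2 are a description, since the libraries left out were chosen on the same counts.

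Cells sense oxygen through the prolyl hydroxylases EGLN1, EGLN2 and EGLN3, which mark the alpha subunits HIF1A and EPAS1 for destruction by the VHL ubiquitin ligase. When oxygen is short, the alpha subunits persist, pair with ARNT and bind short promoter and enhancer elements with the core ACGTG. Their targets supply glucose transport, glycolysis, acid export, lipid storage and blood vessel signals, and include EGLN1 itself as feedback. The same genes are used as markers of low oxygen, and proliferating cells are marked by genes of DNA replication and mitosis.

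The libraries were of like depth. Total counts in the DKO were 18228164 in replicate 2, against 17856636 and 17320855 in replicates 1 and 3, for clone 3, and 23048354, against 18788189 and 22241578, for clone 13. Replicate 2 was thus the deepest library of each clone. Levels are given as CPM, counts relative to library size after trimmed-mean (TMM) scaling over all 16 libraries. TFE3 stood at 8.77 CPM in replicate 2 of clone 3, against 8.35 and 11.8 CPM in replicates 1 and 3, and at 48.1 CPM in replicate 2 of clone 13, against 43.6 and 49.3 CPM. MITF stood at 799 CPM in replicate 2 of clone 3, against 833 and 774 CPM, and at 969 CPM in replicate 2 of clone 13, against 863 and 850.3 CPM. The MITFKO libraries had 72.3 to 79.7 CPM of TFE3, above every DKO library, and the wild-type SKMEL28 library had 45.0 CPM, within the range of clone 13. Counts are per gene and can include transcripts of edited alleles, and neither gene set replicate 2 apart in both clones. Of the melanocyte markers, SOX10 ran from 949 to 1018 CPM and TYR from 252 to 322 CPM over the 6 libraries, while TYRP1 and KIT stayed under 1 CPM.

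Replicate 2 of both DKO clones had more transcript from hypoxia-induced genes and from glycolytic genes, and less from genes of DNA replication and mitosis, than replicates 1 and 3. A gene was counted as higher or lower when the fitted fold was at least 5/4 and replicate 2 lay outside both other replicates of its own clone, in the same direction, in both clones. By that count 825 of 13138 genes were higher (6.28%) and 519 were lower (3.95%), over a median log2 fold change of all genes of -0.0046. Of the 45 hypoxia-induced genes listed, 40 passed the filter on low counts, and 27 of those were higher and 0 lower, with a median log2 fold change of 0.38. Of 33 DNA replication genes, all of which passed the filter, 0 were higher and 10 lower, with a median of -0.27. These shares stand beside the 6.28% and 3.95% of all genes, and since the same contrast chose the libraries, nothing further is read from them.

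**Figure D1:**
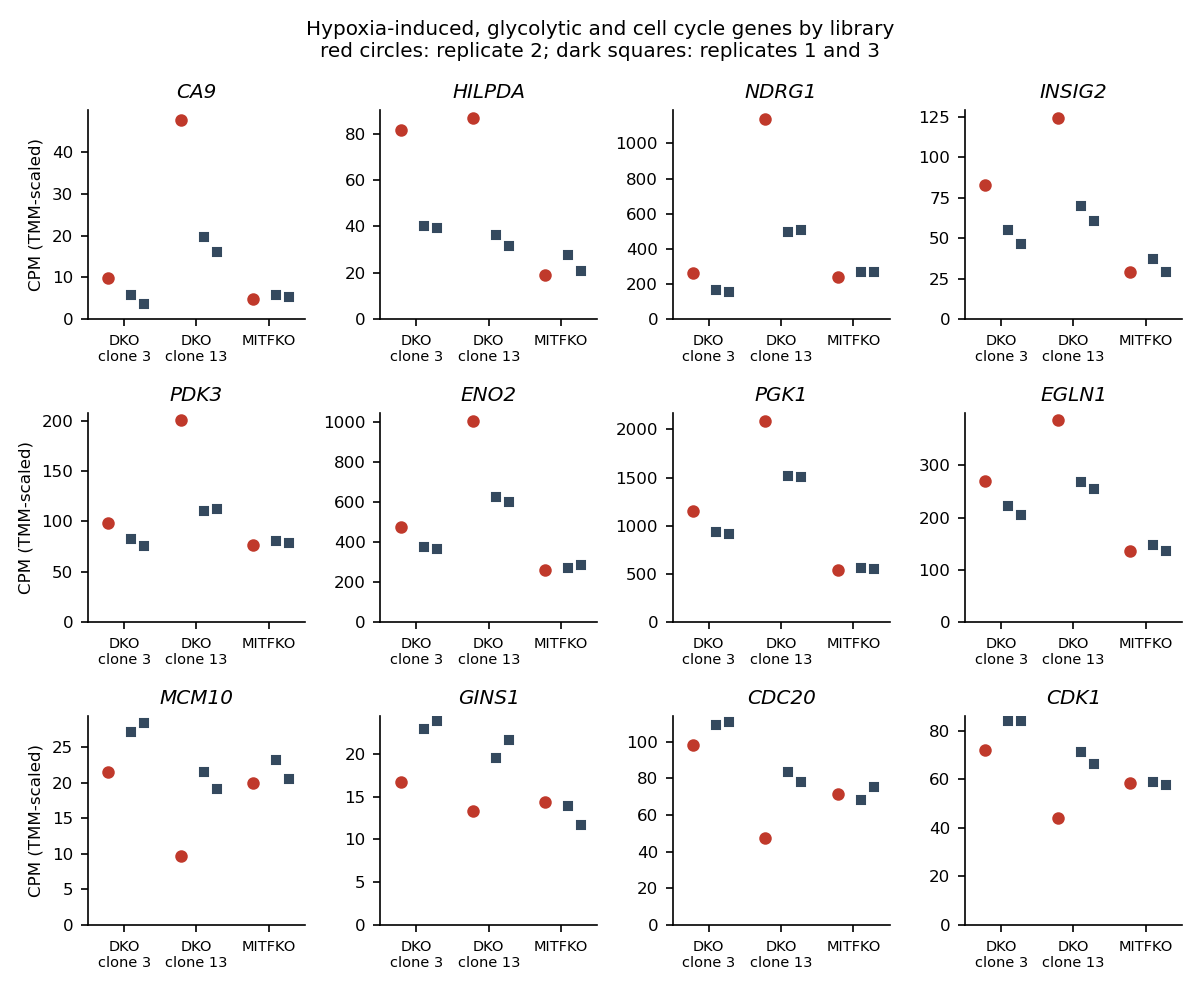
CPM (vertical axes, linear, from 0) of 12 named genes in the DKO clones and MITFKO (horizontal axes), with replicate 2 as red circles and replicates 1 and 3 as dark squares, 1 point per library. The upper and middle rows show hypoxia-induced and glycolytic genes, in which replicate 2 lies above the other replicates in both DKO clones but not in MITFKO; the bottom row shows replication and mitosis genes, in which it lies below them in both DKO clones.

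Among the hypoxia-induced genes that do not belong to glycolysis, CA9 had the largest difference. CA9, a membrane carbonic anhydrase that helps keep intracellular pH up, had 9.80 CPM in replicate 2 of clone 3, against 5.76 and 3.66 CPM in replicates 1 and 3, and 47.7 CPM in replicate 2 of clone 13, against 19.6 and 16.0 CPM. Replicate 2 was the highest library of each clone, and the log2 fold change was 1.29 (2.44-fold), at 1.05 in clone 3 and 1.43 in clone 13. HILPDA, a lipid droplet protein that slows triglyceride breakdown, had 81.3 CPM in replicate 2 of clone 3, against 40.0 and 39.2 CPM, and 86.6 CPM in replicate 2 of clone 13, against 36.2 and 31.4 CPM. Here the 2 clones had similar levels, replicate 2 lay clear of all 4 other libraries, and the log2 fold change was 1.20.

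NDRG1, a stress-response gene widely used as a hypoxia marker, had 261 CPM in replicate 2 of clone 3, against 164 and 158 CPM, and 1139 CPM in replicate 2 of clone 13, against 496 and 508 CPM. The fold was 1.94, and the clone itself made a larger difference, since replicate 2 of clone 3 lay below every clone 13 library. INSIG2, an endoplasmic reticulum protein that holds back sterol synthesis, had 82.6 CPM in replicate 2 of clone 3, against 55.2 and 46.7 CPM, and 124 CPM in replicate 2 of clone 13, against 70.0 and 60.7 CPM. Its log2 fold change was 0.82, and both replicate 2 libraries exceeded all 4 others.

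The other higher genes of the group covered several known outputs of the pathway. STC1, a secreted glycoprotein hormone, and ERO1A, an oxidase for disulfide bonds, had log2 fold changes of 0.75 and 0.66. BNIP3 and BNIP3L, which target mitochondria for autophagy, had 0.47 and 0.43. The collagen prolyl and lysyl hydroxylases P4HA1, P4HA2 and PLOD2 lay between 0.36 and 0.40, and GBE1 and GYS1, which build glycogen, had 0.59 and 0.38. ANGPTL4, a secreted inhibitor of lipoprotein lipase, was higher by 1.06 in clone 3 and by 0.30 in clone 13, the reverse of the usual order of the clones.

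Not every member of the list was higher. ADM, the vasodilator peptide adrenomedullin, had 21.5 CPM in replicate 2 of clone 3, against 17.3 and 17.7 CPM, but 13.3 CPM in replicate 2 of clone 13, against 19.6 and 15.7 CPM. DDIT4, an mTORC1 inhibitor that is also a target of ATF4, likewise pointed in opposite directions in the clones, at 0.24 in clone 3 and -0.28 in clone 13. VEGFA, the vessel growth factor, lay just inside the count at 1.26-fold, with 86.6 CPM in replicate 2 of clone 3, against 82.5 and 86.4 CPM, and 142 CPM in replicate 2 of clone 13, against 97.9 and 91.2 CPM. PLOD1, another lysyl hydroxylase, lay just outside it at 1.248-fold. CA12, LOX, STC2, NDUFA4L2 and PPP1R3C were too low in the DKO to pass the filter.

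The regulators of the pathway differed less than its targets, with a median of 0.10. EGLN1, the main oxygen-sensing hydroxylase, had 270.4 CPM in replicate 2 of clone 3, against 222 and 204 CPM, and 387 CPM in replicate 2 of clone 13, against 269 and 254 CPM. Of 9 tested regulators it was the only one counted as higher, at a log2 fold change of 0.46, and both replicate 2 libraries lay above all 4 others, narrowly so in clone 3. HIF1A mRNA pointed the other way, with 368 CPM in replicate 2 of clone 3, against 407 and 398 CPM, and 425 CPM in replicate 2 of clone 13, against 490 and 502 CPM (log2 fold change -0.17). Oxygen acts on HIF1A at the level of the protein, which these counts do not measure.

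EPAS1, the alpha subunit HIF-2 alpha, and CITED2 had fitted log2 fold changes of 0.57 and 0.37 but were not counted as higher, since replicate 2 of clone 3 lay within the other replicates. EPAS1 had 7.69 CPM in replicate 2 of clone 3, within the 8.58 and 7.56 CPM of replicates 1 and 3, and 12.6 CPM in replicate 2 of clone 13, against 6.08 and 5.37 CPM. CITED2, a HIF-induced protein that competes for the coactivator p300, showed the same form, with 18.0 CPM in replicate 2 of clone 3, inside its 15.4 and 19.3 CPM, and 32.2 CPM in replicate 2 of clone 13, against 22.2 and 19.5 CPM. Whether the clones differ in these genes was not tested. The log2 fold changes of VHL, HIF1AN, which hydroxylates HIF alpha subunits on asparagine, and the partner ARNT were 0.07, 0.10 and -0.12. That of ARNT2, an ARNT relative, was 0.19. EGLN3 stayed under 2 CPM, and EGLN2 and HIF3A did not pass the filter.

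Short stretches of promoter are shown for 6 of the higher genes whose promoters hold the core of the HIF binding element, because the hypoxia-induced genes were higher together. ACGTG was searched on both strands in the 250 bases before each RefSeq gene start (GRCh38.p14). The bases are written 5′ to 3′ on the gene's strand, with ACGTG, or CACGT where it reads on the other strand, in capitals. The windows are chr9:35673868-35673927 for CA9 on the plus strand, chr1:231422288-231422347 for EGLN1 on the minus strand, chr12:6914434-6914493 for ENO2 on the plus strand, chrX:24465197-24465256 for PDK3 on the plus strand, chr4:185396661-185396720 for ANKRD37 on the plus strand and chr1:159954428-159954487 for SLAMF9 on the minus strand.
CA9: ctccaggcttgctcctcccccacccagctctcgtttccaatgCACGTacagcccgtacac
EGLN1: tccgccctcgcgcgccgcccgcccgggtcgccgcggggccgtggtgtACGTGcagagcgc
ENO2: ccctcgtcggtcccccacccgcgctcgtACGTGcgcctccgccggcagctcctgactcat
PDK3: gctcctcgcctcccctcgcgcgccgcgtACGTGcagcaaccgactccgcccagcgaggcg
ANKRD37: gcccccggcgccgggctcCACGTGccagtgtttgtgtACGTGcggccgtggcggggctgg
SLAMF9: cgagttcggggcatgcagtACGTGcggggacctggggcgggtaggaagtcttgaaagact

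The first of the capital runs in ANKRD37 is CACGTG, the E-box that MITF and TFE3 themselves bind, which contains ACGTG on both strands. The motif begins 18 bases before the start in CA9 and 13 bases before it in EGLN1. It begins 118 bases before the start in ENO2, 61 in PDK3 and 231 in SLAMF9. ACGTG occurred in 18.5% of the 35116 promoter windows and CACGTG in 6.34%. By gene, ACGTG was present for 28.9% of the 10271 tested genes with a promoter entry, for 30.5% of the 597 such genes past the fold upward and for 22.5% of the 365 past it downward. In the hypoxia-induced list it was present for 21 of 33 genes (63.6%), 16 of them outside any CACGTG. In the glycolysis list it was present for 15 of 23 (65.2%). In the lists whose members were mostly lower, it was present for 10 of 28 DNA replication genes (35.7%) and 11 of 27 mitosis genes (40.7%). The hypoxia-induced and glycolysis lists hold known HIF targets, so their share is a property of the lists. A match shows only that these letters are in the window.

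Glycolytic genes were higher by smaller steps than the other hypoxia-induced genes. Of 26 genes for glycolysis and for glucose or lactate transport, 25 passed the filter, 24 had a positive log2 fold change, 7 were past the fold and 0 were past it downward. The median was 0.24, and the largest was 0.60 for PDK3. PDK3, a kinase that keeps pyruvate out of the mitochondrial citrate cycle, had 98.4 CPM in replicate 2 of clone 3, against 83.0 and 75.4 CPM, and 201 CPM in replicate 2 of clone 13, against 111 and 112 CPM. ENO2, a form of the glycolytic enzyme enolase, had 475 CPM in replicate 2 of clone 3, against 374 and 366 CPM, and 1008 CPM in replicate 2 of clone 13, against 624 and 599 CPM. In both genes replicate 2 was the highest library of its clone, with the larger step in clone 13.

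PGK1, which makes the first ATP of glycolysis, had 1152 CPM in replicate 2 of clone 3, against 932 and 913 CPM, and 2090.5 CPM in replicate 2 of clone 13, against 1516 and 1511 CPM (1.31-fold). SLC2A3, the glucose transporter GLUT3, was the only gene of the list past the fold whose step was not larger in clone 13, with 215 CPM in replicate 2 of clone 3, against 165 and 153 CPM, and 232 CPM in replicate 2 of clone 13, against 182 and 176 CPM. The hexokinase HK1, the fructose 2,6-bisphosphate enzyme PFKFB4 and the lactate exporter SLC16A3 were the other members past the fold, at log2 fold changes of 0.37, 0.36 and 0.39. SLC2A1, PDK1 and TPI1 lay just outside it, at 1.242-fold, 1.239-fold and 1.237-fold. LDHA, which turns pyruvate into lactate, was higher in replicate 2 in both clones but only 1.15-fold. The nuclear-encoded subunits of the respiratory chain had a median of 0.04, with 0 of 33 past the fold in either direction.

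Replication and mitosis genes were lower in replicate 2. All 33 DNA replication genes had negative log2 fold changes, between -0.68 and -0.07. MCM10, a replication initiation factor, had 21.6 CPM in replicate 2 of clone 3, against 27.1 and 28.5 CPM, and 9.75 CPM in replicate 2 of clone 13, against 21.5 and 19.2 CPM. GINS1, a subunit of the replicative helicase, had 16.7 CPM in replicate 2 of clone 3, against 22.9 and 23.8 CPM, and 13.3 CPM in replicate 2 of clone 13, against 19.5 and 21.6 CPM. In both genes replicate 2 was the lowest library of its clone. E2F1, a transcription factor of S-phase entry, was lower mainly in clone 13, with 77.1 CPM in replicate 2 of clone 3, against 79.8 and 87.6 CPM, and 43.5 CPM in replicate 2 of clone 13, against 74.4 and 73.8 CPM.

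UHRF1, which maintains DNA methylation behind the fork, MCM5, another helicase subunit, and RRM2, of ribonucleotide reductase, had log2 fold changes of -0.48, -0.34 and -0.32. PCNA, the sliding clamp, was lower by less, at -0.27.

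The 32 mitosis genes had a median of -0.25, with 29 negative, 5 past the fold downward and 0 upward. CDC20, an activator of the anaphase-promoting complex, had 98.1 CPM in replicate 2 of clone 3, against 109 and 111 CPM, and 47.5 CPM in replicate 2 of clone 13, against 83.6 and 78.2 CPM. CDK1, the mitotic kinase, had 72.0 CPM in replicate 2 of clone 3, against 83.9 and 84.1 CPM, and 44.2 CPM in replicate 2 of clone 13, against 71.1 and 66.3 CPM. Replicate 2 was the lowest library of its clone for both genes, and in clone 13 it lay well under every other DKO library. The kinesins KIF23 and CENPE had log2 fold changes of -0.39 and -0.40, and the proliferation antigen MKI67 had -0.28, short of the fold. In bulk RNA, fewer cycling cells and less of these transcripts per cell cannot be told apart.

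Among 15 tested G1 cyclins and CDK inhibitors, 3 were past the fold. CDKN2A, which encodes p16INK4A and p14ARF, had 214 CPM in replicate 2 of clone 3, against 168 and 162 CPM, and 266 CPM in replicate 2 of clone 13, against 191 and 195 CPM. CDKN2B, its p15INK4B neighbour, had 56.6 CPM in replicate 2 of clone 3, against 47.7 and 44.5 CPM, and 102 CPM in replicate 2 of clone 13, against 67.8 and 68.3 CPM. RBL1, the p107 pocket protein, was lower, with 35.1 CPM in replicate 2 of clone 3, against 41.8 and 44.1 CPM, and 32.8 CPM in replicate 2 of clone 13, against 44.6 and 42.9 CPM.

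**Figure D2:**
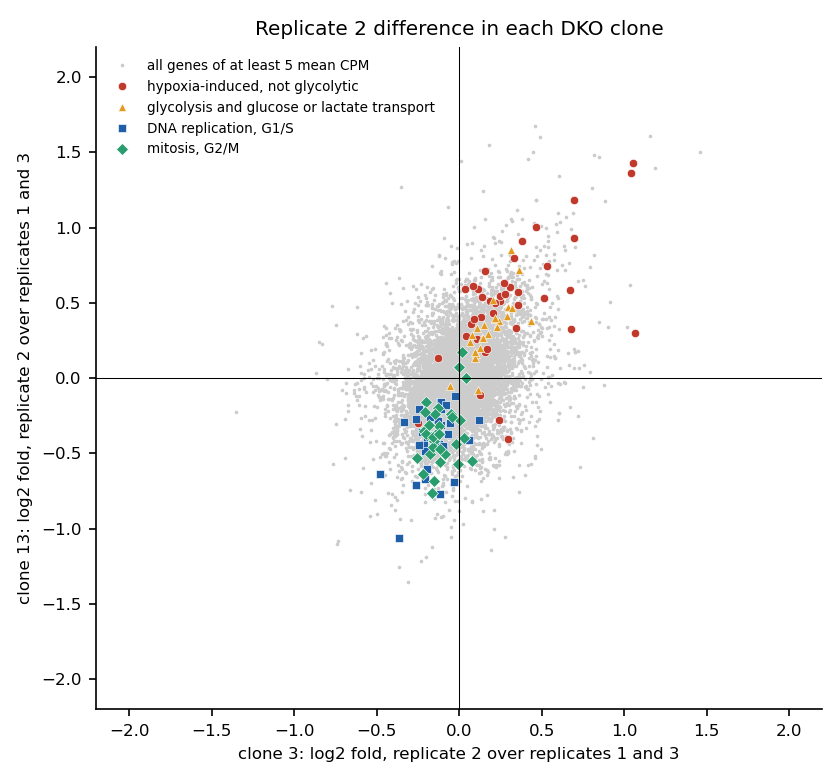
Log2 fold change of replicate 2 over replicates 1 and 3 in clone 3 (horizontal axis) and in clone 13 (vertical axis), 1 point per gene, for the 10500 tested genes with a mean of at least 5 CPM, with members of 4 gene lists coloured. Hypoxia-induced and glycolytic genes lie mostly to the upper right and replication and mitosis genes mostly to the lower left, and the cloud is taller than it is wide (SD 0.26 in clone 13 and 0.18 in clone 3).

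In most genes of the hypoxia, glycolysis, replication and mitosis lists, the clones shared the direction of the difference and differed in its size. For genes counted as higher or lower, a shared direction is part of the rule. Across the 10500 tested genes with a mean of at least 5 CPM, the log2 fold changes of the clones had a Pearson r of 0.39 and a Spearman rho of 0.37. These are correlations across genes, which are not independent replicates, and any cause common to both replicate 2 libraries enters them. The difference was larger in clone 13 for 594 of the 825 higher genes and for 363 of the 519 lower genes. By list it was larger there for 35 of 40 hypoxia-induced, 21 of 25 glycolytic, 31 of 33 replication and 30 of 32 mitosis genes. The list medians were 0.25 in clone 3 and 0.52 in clone 13 for hypoxia-induced genes, and -0.13 and -0.37 for replication genes.

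Outside these lists, the largest differences were in genes of varied function. SLAMF9, a receptor of the SLAM family, had 35.4 CPM in replicate 2 of clone 3, against 15.0 and 16.8 CPM, and 175 CPM in replicate 2 of clone 13, against 57.2 and 57.1 CPM. Its log2 fold change of 1.43 exceeded that of CA9, with replicates 1 and 3 close together in each clone. NRN1, neuritin, a surface protein that promotes neurite growth, had 55.9 CPM in replicate 2 of clone 3, against 33.7 and 28.3 CPM, and 203 CPM in replicate 2 of clone 13, against 74.0 and 72.2 CPM. NPTX1, a neuronal pentraxin, had 16.0 CPM in replicate 2 of clone 3, against 10.9 and 12.4 CPM, and 107 CPM in replicate 2 of clone 13, against 32.1 and 35.0 CPM. Both clones had replicate 2 on top, and for NPTX1 the log2 fold change was 1.67 in clone 13 and 0.46 in clone 3.

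PTPRN, a phosphatase-like protein of secretory granules, and JAG2, a Notch ligand, had log2 fold changes of 1.49 and 1.27. That of JAG2 was 0.58 in clone 3, the value left without replicate 2 of clone 13, and 1.72 in clone 13. INHA, the inhibin alpha subunit, UPK1A, a uroplakin, and TNS1, a focal adhesion protein, had 1.71, 1.67 and 1.28, all at levels under 16 CPM. DOK3, a signalling adaptor, had 14.8 CPM in replicate 2 of clone 3, against 4.61 and 8.45 CPM, and 34.8 CPM in replicate 2 of clone 13, against 13.5 and 12.9 CPM. Its neighbour DDX41 on chromosome 5 had a log2 fold change of 1.05, and UPK1A-AS1, which overlaps UPK1A, had 1.12. Use of strand in the counting is not given in the sources used here, so reads of such pairs may be shared.

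The largest lower genes were smaller in fold and mostly scarce. RNF138, a ubiquitin ligase of DNA repair, had 10.4 CPM in replicate 2 of clone 3, against 20.9 and 13.8 CPM, and 8.26 CPM in replicate 2 of clone 13, against 17.6 and 17.4 CPM (log2 fold change -0.91). SORBS2, a cytoskeletal adaptor, LRRC8B, a subunit of the volume-regulated anion channel, and NSMCE4A, of the SMC5/6 complex, had -0.87, -0.76 and -0.70. LRAT, which esterifies retinol, had -0.68. The zinc finger genes ZNF438 and ZNF367 had -0.80 and -0.72, and the noncoding LINC00294 and MSC-AS1 had -0.72 and -0.71. LINC00294 was lower mainly in clone 3, at -1.35 against -0.23 in clone 13, whereas ZNF438 had -0.31 in clone 3 and -1.35 in clone 13 and LRRC8B had -0.36 in clone 3 and -1.26 in clone 13. With MCM10 these are the 10 largest lower genes by the rule for named genes.

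In the lists of NRF2, ATF4 and heat shock genes the members past the fold were all lower, beside the 3.95% of all genes that were lower. Negative log2 fold changes were found for 15 of 18 NRF2, 16 of 21 ATF4 and 10 of 12 heat shock genes. Of 18 tested NRF2 targets, 3 were past the fold downward and 0 upward: GCLM, of glutathione synthesis, OSGIN1, and the cystine importer SLC7A11, at log2 fold changes of -0.50, -0.44 and -0.35. Of 21 tested genes of the ATF4 response, 2 were lower, the serine synthesis enzyme PSAT1 and again SLC7A11. Of 12 tested heat shock genes, the HSP70 family member HSPH1 and the HSP90 co-chaperone CHORDC1 were lower, at -0.37 and -0.36. Of 15 endoplasmic reticulum chaperones, 0 were past the fold in either direction, with HSPA5 at -0.04. In the interferon and antigen presentation list, HLA-B and HLA-C, which present peptides to T cells, and the ubiquitin-like ISG15 were higher, at 0.51, 0.41 and 0.33. HLA genes have near-identical copies, so their values are uncertain.

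Ribosomal protein genes moved together by a small step. All 31 tested were positive, beside 6428 of all 13138 genes. Above both other replicates in both clones lay 29 of the 31, beside 2583 of all 13138 genes. Of the 31 ribosomal protein genes 0 were past the fold, with a median of 0.17. Their share of all counts was 4.10% in replicate 2 of clone 3, against 3.84% and 3.81%, and 4.50% in replicate 2 of clone 13, against 4.09% and 4.13%. Many ribosomal protein genes have processed copies elsewhere in the genome, so single values are uncertain. Of the lysosomal genes under the CLEAR element, which TFE3 regulates, 0 of 39 were past the fold, with a median of 0.09. By order alone, 23 of the 39 lay above both other replicates in both clones. CTSD, the protease cathepsin D, lay just short of the threshold at a log2 fold change of 0.32, with 3427 CPM in replicate 2 of clone 3, against 3068 and 3017 CPM, and 6025 CPM in replicate 2 of clone 13, against 4359 and 4387 CPM.

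PMEL, a melanosome matrix protein and target of MITF, had 3915 CPM in replicate 2 of clone 3, against 3167 and 3311 CPM, and 5457 CPM in replicate 2 of clone 13, against 3920.1 and 3995 CPM. MLANA, another melanocyte gene, was lower but under 5 CPM throughout. Of the 22 tested melanocyte genes, 15 were positive and 7 negative.

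Library properties moved with replicate 2, and their part in these differences was not tested. The 10 most abundant genes took 6.05% of counts in replicate 2 of clone 3, against 5.81% and 5.75%, and 8.56% in replicate 2 of clone 13, against 7.45% and 7.41%. Over 10287 genes, the log2 fold change had a Spearman rho with the GC percent of the longest transcript of 0.19 in clone 3 and 0.16 in clone 13. With transcript length rho was -0.17 in clone 3 and -0.05 in clone 13. Most markers of other cells were low, and 1 in each of the 3 lists was counted as higher. They were the keratinocyte marker DSP, at a log2 fold change of 0.32, the fibroblast marker PDGFRA, at 0.95 with under 5 CPM in every DKO library, and the endothelial marker VWF, at 0.75 with under 3 CPM. The keratinocyte markers summed to 65.3 CPM in replicate 2 of clone 3, against 61.8 and 64.1 CPM, and to 106 CPM in replicate 2 of clone 13, against 79.9 and 89.6 CPM. Nearly all of that came from DSP and KRT10, and 8 of the 11 markers, among them KRT5 and TP63, stayed under 1 CPM in all 6 libraries. The fibroblast markers summed to 111 CPM in replicate 2 of clone 3, against 102 and 107 CPM, and to 89.3 CPM in replicate 2 of clone 13, against 82.2 and 76.8 CPM, mostly from LUM, and 6 of 10 stayed under 1 CPM. The leukocyte and endothelial markers summed to under 5 CPM in every DKO library.

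**Figure D3:**
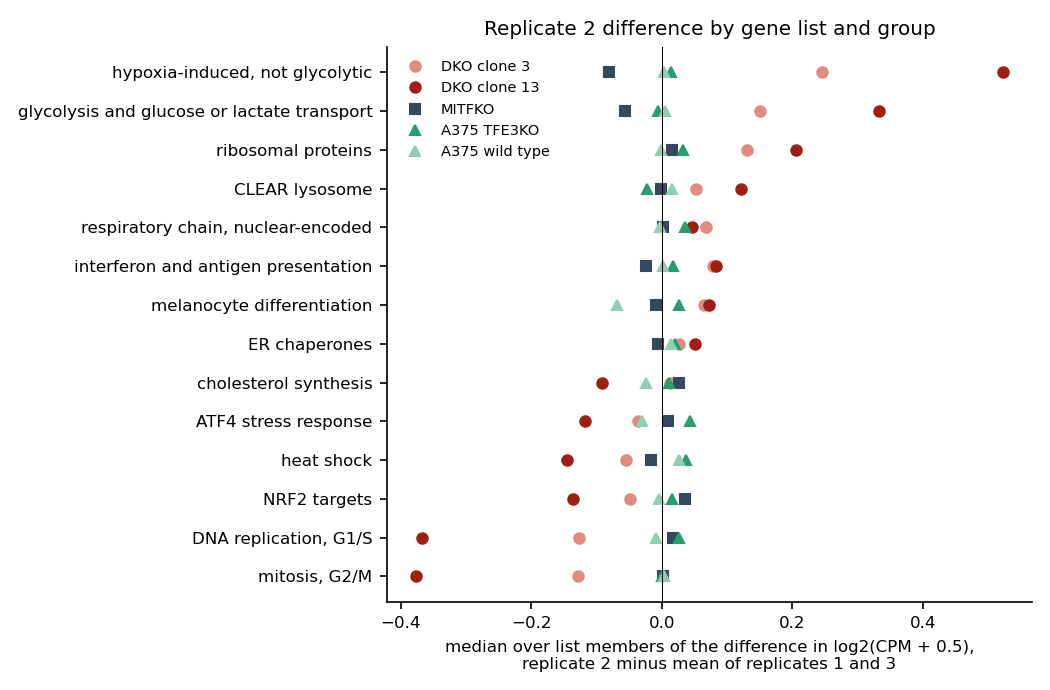
Median difference in log2(CPM + 0.5) between replicate 2 and the mean of replicates 1 and 3 (horizontal axis) over the members of 14 gene lists (vertical axis) in each group with 3 replicates, 1 symbol per group. The DKO clones lie far to the right for hypoxia-induced genes (0.25 and 0.52) and to the left for mitosis genes (-0.13 and -0.38), while MITFKO and both A375 groups lie within 0.1 of 0 in every list drawn.

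Replicate 2 was examined likewise in the groups outside the DKO. The MITFKO and A375 libraries played no part in the choice, so replicate 2 was tested in them by quasi-likelihood in edgeR, and p-values were adjusted over all genes by the method of Benjamini and Hochberg. In MITFKO, 1 of 14605 genes was called at an adjusted p under 0.05 (0.00685%), and it was no member of the hypoxia, glycolysis, replication or mitosis lists. It was CDK2AP1, a CDK2-binding inhibitor of growth, which fell (log2 fold change -0.40 ± 0.065 SE, adjusted p = 0.000335). With the MITFKO libraries fitted alone 0 genes were called. At an unadjusted p under 0.05 there were 251 genes, and DESeq2 called 1. In A375, with wild-type and TFE3KO cells as blocks, 0 of 14012 genes were called (0%), with 504 at an unadjusted p under 0.05 and 0 by DESeq2.

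The hypoxia-induced genes had a median log2 fold change for replicate 2 of -0.09 in MITFKO and of 0.01 in A375, and the replication genes had 0.02 and 0.01. CA9 had 4.76 CPM in replicate 2 of MITFKO, against 5.86 and 5.27 CPM in replicates 1 and 3 (log2 fold change -0.23 ± 0.257 SE, adjusted p = 1 by edgeR). HILPDA had 19.2 CPM in replicate 2 of MITFKO, against 27.8 and 20.9 CPM (-0.34 ± 0.14 SE, adjusted p = 1 by edgeR). In A375 TFE3KO cells HILPDA had 16.0 CPM in replicate 2, against 13.1 and 13.1 CPM, and in wild-type cells it had 14.1 CPM, against 13.5 and 13.6 CPM. The test in MITFKO rests on 1 library against 2, so a modest difference could be missed, and the difference between the DKO and these groups was itself not tested.

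By the same rule of fold and order used in the DKO, A375 had 376 higher genes (2.68%) and 356 lower genes (2.54%), against the 6.28% and 3.95% of the DKO. The DKO split was chosen on these counts, which raises its shares, and the A375 split was not, so the shares are not like measures. For MITFKO the rule has only 1 replicate 2 library to satisfy and is passed more easily, with 1062 higher (7.27%) and 1144 lower genes (7.83%).

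**Figure D4:**
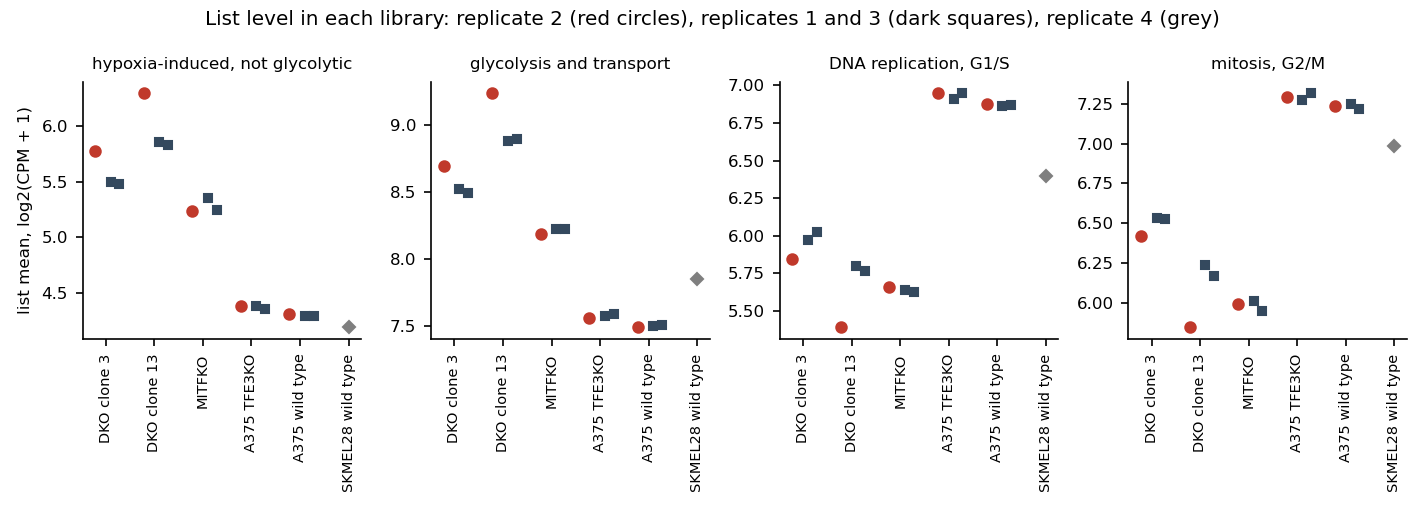
Mean log2(CPM + 1) over the members of 4 gene lists (vertical axes, which do not start at 0) in each library, by group (horizontal axes), with replicate 2 as red circles, replicates 1 and 3 as dark squares and the lone SKMEL28 wild-type library, replicate 4, as a grey diamond. Replicate 2 of DKO clone 13 is the highest library for hypoxia-induced genes (6.30) and glycolysis (9.24) and the lowest for replication (5.39) and mitosis (5.85).

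Set against all 16 libraries, replicate 2 of clone 13 stood at an extreme for each of the 4 lists. Its mean level of the hypoxia-induced list was 6.30 on the log2(CPM + 1) scale, against 5.86 and 5.83 in replicates 1 and 3. Replicate 2 of clone 3 stood at 5.78, against 5.50 and 5.48. All 6 DKO libraries exceeded the 5.24 to 5.36 of MITFKO and the 4.19 of wild-type SKMEL28, and the A375 libraries ran from 4.29 to 4.38. For DNA replication replicate 2 of clone 13 stood at 5.39, against 5.80 and 5.77, below the 5.63 to 5.66 of MITFKO, whereas the other DKO libraries lay above MITFKO. The mitosis list gave the same order, with 5.85 in replicate 2 of clone 13, against 6.24 and 6.17, and 5.95 to 6.01 in MITFKO. On the replication and mitosis lists, replicate 2 of clone 13 was thus on the other side of MITFKO from the rest of its genotype.

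Replicate 2 therefore bears on the DKO against MITFKO comparison, which sets both TFE3-edited clones against the MITFKO line they came from. Editing of TFE3 and other differences between single clones and that line cannot be told apart in it. Its p-values measure the spread between flasks. With all libraries, with both clones averaged, 2970 of 13495 genes rose (22%) and 3053 fell (22.6%) in edgeR's quasi-likelihood test at an adjusted p under 0.05. Without replicate 2 of both clones, 3370 of 13642 rose (24.7%) and 3378 fell (24.8%). Of the 6023 genes called with all libraries, 5802 were also called without replicate 2 and in the same direction, which is 5802 of the 6748 called then. Fewer libraries gave more calls.

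Hypoxia-induced genes moved toward MITFKO when replicate 2 was left out, and replication and mitosis genes moved away from it. The direction of these shifts follows from what replicate 2 was chosen for. Leaving out libraries chosen for standing apart also tends to narrow the spread. The sizes, calls and adjusted p-values without replicate 2 are therefore a description, and those p-values may be too small. CA9 was not called with all libraries (log2 fold change 1.33 ± 0.502 SE, adjusted p = 0.0728 by edgeR), and rose without replicate 2, by a smaller amount (0.79 ± 0.161 SE, adjusted p = 5.04e-05 by edgeR). HILPDA behaved alike, at 1.21 ± 0.461 SE (adjusted p = 0.0773 by edgeR) with all libraries and 0.69 ± 0.091 SE (adjusted p = 8.15e-09) without. DESeq2 called both with all libraries (adjusted p = 0.00997 for CA9 and 0.0124 for HILPDA). CA9 was also called by edgeR without replicate 2 of clone 13 alone (adjusted p = 0.000738) or replicate 3 of clone 13 alone (0.0368), and with all libraries and the replicate number as a block (log2 fold change 1.19, adjusted p = 0.00844). For NDRG1 the estimate shrank to 0.13 ± 0.04 SE without replicate 2 (adjusted p = 0.00643 by edgeR), against 0.51 ± 0.338 SE with it (adjusted p = 0.272).

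EGLN1, PGK1 and INSIG2 were called either way. EGLN1 rose by 0.93 ± 0.163 SE with all libraries (adjusted p = 0.00293 by edgeR) and by 0.76 ± 0.044 SE without replicate 2 (adjusted p = 1.07e-20). PGK1 rose by 1.252 ± 0.126 SE with all libraries (adjusted p = 5.6e-05 by edgeR) and by 1.11 ± 0.032 SE without (adjusted p = 4.84e-33). INSIG2 rose by 1.19 with all libraries (adjusted p = 0.0226 by edgeR), a call that ended without MITFKO replicate 1 (adjusted p = 0.0526), 2 (0.0843) or 3 (0.0798), and by 0.86 without DKO replicate 2 (adjusted p = 3.94e-13). BHLHE41, a circadian repressor of the hypoxia list named here after its values were seen, turned its sign. Its log2 fold change was 0.02 with all libraries (adjusted p = 0.943 by edgeR), and without replicate 2 it fell by 0.22 (adjusted p = 0.00768).

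**Figure D5:**
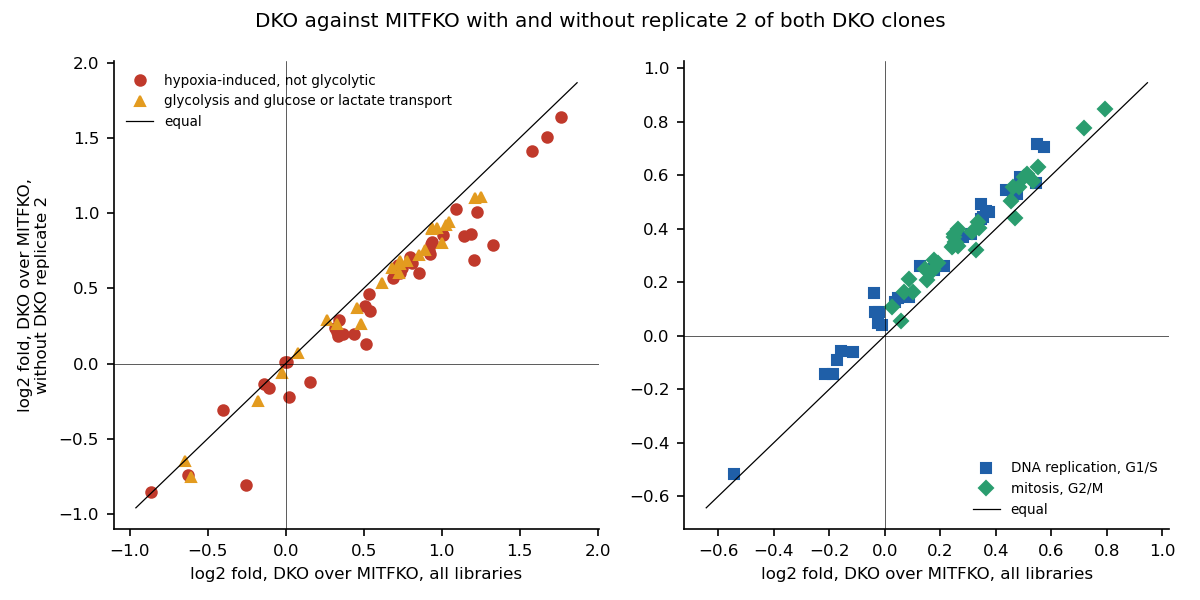
Log2 fold change of DKO over MITFKO with all libraries (horizontal axes) and without replicate 2 of both DKO clones (vertical axes), 1 point per gene of the hypoxia and glycolysis lists (left) and the replication and mitosis lists (right), with the line of equal values. Most points lie below the line on the left and above it on the right, and the change is larger for CA9 (1.33 and 0.79) than for CDC20 (0.26 and 0.40).

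Cell cycle genes gained calls when replicate 2 was left out, and so did genes at large. Calls and p-values without replicate 2 of either or both clones are again a description. Those libraries were chosen on these counts, and the p-values may be too small. Over all genes tested, the share that rose went from 22% to 24.7% and the share that fell from 22.6% to 24.8%. Of the 32 mitosis genes, 19 rose and 0 fell with all libraries, and 29 rose and 0 fell without replicate 2. Of the 33 replication genes, 15 rose and 3 fell with all libraries, and 20 rose and 2 fell without it. CDC20 was not called with all libraries (log2 fold change 0.26 ± 0.164 SE, adjusted p = 0.239 by edgeR) and rose without replicate 2 (0.40 ± 0.054 SE, adjusted p = 1.6e-08). CDK1 likewise had 0.25 ± 0.125 SE with all libraries (adjusted p = 0.133 by edgeR) and 0.38 ± 0.058 SE without (adjusted p = 1.94e-07), and it was called with all libraries by DESeq2 (adjusted p = 0.0414), by edgeR with no filter on low counts (0.00358) and by edgeR with the replicate number as a block (0.0327). Leaving out replicate 2 of clone 13 alone was enough for both calls (adjusted p = 4.91e-07 for CDC20 and 8.88e-06 for CDK1 by edgeR), whereas leaving out replicate 2 of clone 3 alone was not (0.237 and 0.0971). Of the 41 hypoxia-induced genes tested, 26 rose and 4 fell with all libraries, and 30 rose and 5 fell without replicate 2. Of the 25 glycolytic genes, 19 rose and 3 fell with all libraries, and 20 rose and 3 fell without it.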

How the data were processed

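Raw read counts per gene, 1 whole-number column per library for 28278 gene symbols, were deposited by the authors. The submitters' processing notes name STAR, featureCounts, DESeq2 and hg19, with no versions, and the annotation and use of strand were not given in the sources used here. Of the symbols, 26998 matched a GRCh38 RefSeq table and 27656 with synonyms. Mitochondrially encoded genes were not analysed here, and some results are not reported here. Totals ran from 17320855 to 31269126, and counts without molecular identifiers carry more than counting error.

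Counts were fitted with edgeR 4.0.16 in R 4.3.3 (filterByExpr, TMM, robust quasi-likelihood). The DKO fit had clone as a block. The MITFKO test came from a fit of all 10 SKMEL28 libraries and the A375 test from its 6, so that 1 replicate 2 library is assumed to vary like the others of its model. SE is the log2 fold change over the root of F. The step was tested on simulated data. DESeq2 1.42.0, RLE scaling, no filter, folds of 1.5 and 2, each clone alone, a replicate block and every library left out in turn were alternatives. Replicates were separate flasks of 1 clone or line, so p-values measure the spread between flasks.

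The members, the 25 gene lists and the tests were chosen with earlier results of these data known. Genes named were MITF, TFE3, TFEB and TFEC, the HIF regulators, the 10 largest differences each way with a mean of at least 5 CPM in the higher set, and in each list up to 4 members past the fold, with further members of 4 lists added after their values were seen. TFEB lay under 2 CPM in every SKMEL28 library, and TFEC was too low to test. GC percent came from GENCODE v29 transcripts. Figures were drawn with matplotlib.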

Additional observations from a re-analysis of the deposited data

Results flagged for a closer look

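Among 97 values checked for a stray library in the 4 libraries of replicates 1 and 3 of the DKO, 3 stood apart. The limit used flags about 1 in 20 by chance when all 4 libraries come from 1 like group. Here they came from both clones, so that rate need not hold. Replicate 1 of clone 13 had 4.80 CPM of INHA, against 1.22 CPM in replicate 3 of that clone and 1.09 and 0.886 CPM in replicates 1 and 3 of clone 3, so the low level against which INHA in replicate 2 of clone 13 is set (10.7 CPM) is itself uneven. The other 2 were near 0: TFEC was at 0.0576 CPM in replicate 1 of clone 3 and HIF3A at 0.0591 CPM in replicate 3 of clone 3. The rest had 0 counts, so any count above 0 would have been flagged.

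Of 19 lists with at least 10 tested members, 3 had replicate 2 on one side of replicates 1 and 3 in both DKO clones and on the other side in both A375 groups, by the median over members of the difference in log2(CPM + 0.5). For mitosis genes the DKO clones minus A375 came to -0.25, from medians of -0.13 in clone 3 and -0.38 in clone 13 and of 0.00035 in A375 TFE3KO and 0.0026 in A375 wild type. For heat shock genes it came to -0.13 and for immediate early genes to 0.12. These differences were not tested, and the A375 medians of the mitosis list are close to 0.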

How the results depend on the processing

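The counts of genes past the fold in the DKO depended on the rule. They were 329 higher and 177 lower at 1.5-fold and 87 and 59 at 2-fold. In clone 3 alone 977 were lower, and in clone 13 alone 1801 were higher and 1577 lower; without one library each they ran from 952 to 1882 higher and from 608 to 1633 lower. The highest counts came without replicate 2 of clone 3 (1882 and 1633), and those without replicate 2 of clone 13 were 1241 and 1045, because a single replicate 2 library then had to pass. The medians of the hypoxia, glycolysis, replication and mitosis lists kept their sign throughout, the hypoxia median running from 0.25 to 0.52 and the mitosis median from -0.38 to -0.13. In MITFKO the number of lower genes called was 0 with its libraries alone and ran from 1 to 2 with one library left out. In A375 it stayed at 0.

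DKO against MITFKO calls ran from 2375 to 3322 higher and from 2379 to 3317 lower with one library left out. Samples with the same replicate number did not deviate together between MITFKO and the DKO (r from -0.08 to 0.06 over 10500 genes). The highest r between MITFKO and the DKO was that of MITFKO replicate 3 with replicate 2 of clone 3 (0.12) and of clone 13 (0.10). Between the clones r was 0.40 for replicate 2, and 0.17 and 0.18 for replicates 1 and 3, close to the 0.14 and 0.16 of replicates 1 and 3 crossed. Deviations were taken from the mean of all replicates of a group. A replicate 2 deviation shared by the clones therefore raises r among replicates 1 and 3 by arithmetic, and nothing is read from those values. With a replicate block 3098 genes rose and 3191 fell. BHLHE41 turned sign without replicate 2 of both clones (-0.22), with the replicate block (-0.017) and with some single libraries left out (-0.12 to 0.10); the cause was not tested. At this depth, genes under about 5 CPM give uneven folds.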

Other observations

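Matrix, immediate early and cholesterol synthesis lists had few members past the fold in the DKO. Of 22 tested collagen and matrix genes, 1 was past the fold, TIMP3, an inhibitor of metalloproteinases, with 5600 CPM in replicate 2 of clone 3, against 5122 and 5004 CPM in replicates 1 and 3, and 9265 CPM in replicate 2 of clone 13, against 6266 and 6033 CPM. FN1, fibronectin, and SPARC, a matricellular protein, had log2 fold changes of 0.06 and 0.17. Of 17 tested immediate early genes, ZFP36, which destabilises mRNAs of cytokines, was higher at 0.57 and FOS lower at -0.33. Of 24 tested genes of cholesterol synthesis, 1 was higher and 1 lower, TM7SF2 and ACAT2.

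Metallothioneins split. MT1X had 21.2 CPM in replicate 2 of clone 3, against 18.4 and 18.3 CPM, and 57.9 CPM in replicate 2 of clone 13, against 29.5 and 31.3 CPM. MT2A, the more abundant gene, was lower in replicate 2, with 446 CPM in clone 3, against 483 and 566 CPM, and 545 CPM in clone 13, against 675 and 627 CPM. Both bind zinc and copper, and their sequences are much alike, so their values are uncertain. Of 16 tested YAP and TEAD outputs, CCN2, a matricellular growth factor, and NUAK2, a kinase, were lower. CCN2 had 21.0 CPM in replicate 2 of clone 3, against 23.6 and 24.7 CPM, and 10.2 CPM in replicate 2 of clone 13, against 14.7 and 19.1 CPM. NUAK2 was under 2 CPM throughout and had 0 counts in replicate 2 of clone 13. Of 18 tested p53 targets, BBC3, the apoptosis inducer PUMA, was higher at 0.72, and 0 were lower past the fold.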
